A study of Homo sapiens with 19 samples.

Results

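Human mitochondria carry their own small circular genome, and 10 of the 13 proteins it encodes are described here across 17 RNA-seq libraries of MDA-MB-231 cells, an established triple-negative breast cancer line. The genes are MT-ND1, MT-ND2, MT-ND4, MT-ND5 and MT-ND6, core subunits of NADH dehydrogenase (complex I), MT-CYB, the cytochrome b subunit of complex III, MT-CO1, MT-CO2 and MT-CO3, the core subunits of cytochrome c oxidase (complex IV), and MT-ATP6, the proton channel subunit of ATP synthase (complex V). They were picked out by their Ensembl transcript IDs, and all 10 were found in every library among 175775 listed transcripts. The other 3 mitochondrial protein genes, MT-ND3, MT-ND4L and MT-ATP8, are not analysed here.

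Mitochondrial DNA is transcribed from both strands as long precursors, which are cut into separate messenger RNAs, mostly at the transfer RNAs that lie between the genes. All of the genes studied here except MT-ND6 are read from the same strand; MT-ND6 lies on the opposite one, and its messenger RNA is known to have little or no poly(A) tail. Because the messengers other than MT-ND6 share a precursor, differences among their steady levels are known to depend largely on processing and stability after transcription. STAT3 is a transcription factor that acts downstream of cytokine receptors, and a pool of it has been described in mitochondria; HMGN5 binds nucleosomes in the nucleus and loosens compact chromatin.

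All cells were treated with 30 nM siRNA in a lipid carrier and grown in L15 medium with 10% serum. In the siRNA experiment, cells received siRNA against STAT3 (siSTAT3, n = 2), siRNA against HMGN5 (siHMGN5, n = 2) or a control siRNA (NC, n = 4). In the lentiviral experiment, cells received the STAT3 siRNA with a lentivirus carrying HMGN5 (siSTAT3_HMGN5, n = 3), the STAT3 siRNA with an empty lentiviral vector (siSTAT3_Vec, n = 3) or the control siRNA with the empty vector (NC_Vec, n = 3). The design asks what loss of either protein does to the transcriptome, and what HMGN5 supplied from outside does in cells treated with STAT3 siRNA. The labels name neither the siRNA sequences nor the promoter driving HMGN5, and they do not say whether libraries of a group came from separate cultures, and the p-values here rest on the spread among libraries that may be technical repeats.

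On the reference mitochondrial genome of RefSeq GRCh38.p14, MT-ND1 (ENST00000361390) lies at bases 3307 to 4262, MT-ND2 (ENST00000361453) at 4470 to 5511, MT-CO1 (ENST00000361624) at 5904 to 7445 and MT-CO2 (ENST00000361739) at 7586 to 8269. MT-ATP6 (ENST00000361899) follows at 8527 to 9207 and shares 1 base with MT-CO3 (ENST00000362079) at 9207 to 9990. MT-ND4 (ENST00000361381) lies at 10760 to 12137, MT-ND5 (ENST00000361567) at 12337 to 14148, MT-ND6 (ENST00000361681) at 14149 to 14673 and MT-CYB (ENST00000361789) at 14747 to 15887. The length of each transcript in the deposited tables equalled that of the RefSeq gene for all 10. None of these genes has an intron.

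Library totals were 19114033 to 19509422 estimated reads in the siRNA experiment and 22500086 to 23047081 in the lentiviral one, and the 10 genes drew between 2015 and 635857 reads each, so counting error was small beside the spread between libraries. The 4 NC libraries fell into 2 pairs, replicates 1 and 2 against 3 and 4: a mean chi-square over transcripts was 15.9 and 16.4 within the pairs and 32.9 to 34.1 between them, against 14.7 to 18.7 between replicates of the other groups. The labels give no batch for these pairs, and results against NC were repeated against each pair alone. The deposited tables do not pair transcripts with genes, so the levels of STAT3 and HMGN5 and the markers of the cell line were not checked here. In bulk RNA, more mitochondrial RNA per cell, less of the other RNA, and more cells rich in mitochondrial RNA cannot be told apart.

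The 10 genes took up a much larger part of the RNA after either siRNA. Their share of a library's estimated reads was 13.0% and 13.4% in the siSTAT3 libraries and 9.90% and 11.5% in the siHMGN5 libraries, against 5.70%, 6.73%, 5.32% and 5.38% in the NC libraries. Every siSTAT3 library stood above every siHMGN5 library, and every siHMGN5 library above every NC library. The mean share was 2.28 times that of NC after STAT3 siRNA and 1.85 times that of NC after HMGN5 siRNA. In the lentiviral experiment the shares lay close together: 4.47%, 3.96% and 4.16% in siSTAT3_HMGN5, 3.72%, 3.75% and 3.73% in siSTAT3_Vec, and 4.27%, 3.94% and 4.01% in NC_Vec. The siSTAT3_Vec libraries were all below the NC_Vec libraries, while siSTAT3_HMGN5 and NC_Vec overlapped. The share of reads on transcripts shorter than 300 bases was also higher after either siRNA, at 1.57% and 1.59% in siSTAT3, 1.56% and 1.70% in siHMGN5 and 1.15% to 1.26% in NC, and here the siSTAT3 and siHMGN5 libraries overlapped. With these short transcripts left out of the library totals, the 10 genes' mean share was 13.4% in siSTAT3, 10.9% in siHMGN5 and 5.85% in NC. With them it was 13.2%, 10.7% and 5.78%. The part of the short transcripts in the result was otherwise not tested.

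**Figure D1:**
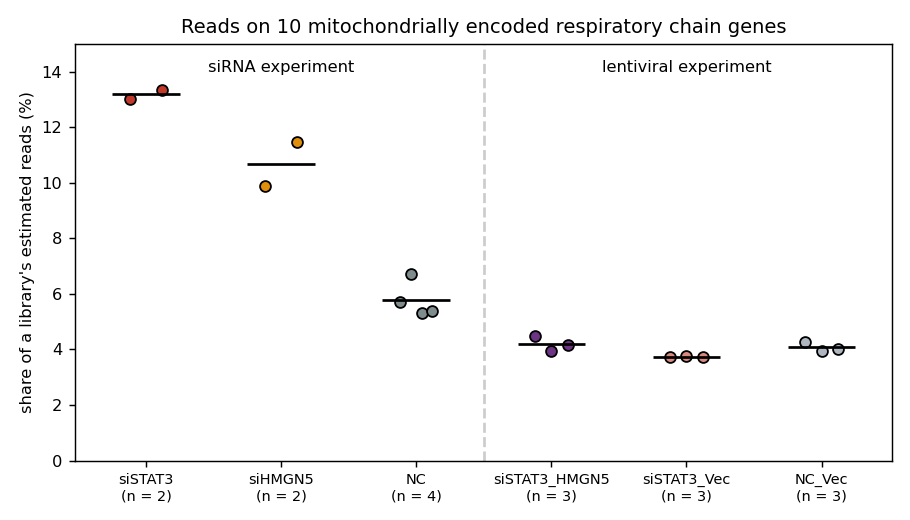
Share of each library's estimated reads (percent, y axis) that fell on the 10 mitochondrially encoded genes, by group (x axis); points are libraries and bars are group means. The siSTAT3 points lie at 13.0% and 13.4% and the siHMGN5 points at 9.90% and 11.5%, above all NC points, while all 9 lentiviral libraries lie between 3.72% and 4.47%.

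After STAT3 siRNA all 10 genes rose against the control siRNA. The steepest rises, close to 4-fold, were those of MT-ND2, MT-CYB and MT-ND1; MT-ATP6 rose 2.60-fold and MT-CO2 2.40-fold, and the other 5 rose between 1.85-fold and 2.01-fold. For all 10 both siSTAT3 libraries lay above all NC libraries, as they did for 16.6% of all transcripts tested and 20.2% of those with a mean of 100 CPM (reads per 1000000 reads of the library) or more. By edgeR's quasi-likelihood test with Benjamini-Hochberg adjustment over 74346 transcripts, all 10 passed an adjusted p of 0.05. Of all transcripts tested, 4.28% were called in either direction and 1.36% as higher; among the 1453 whose mean reached 100 CPM, a level that all 10 genes exceed, 5.02% were called as higher. The median log2 fold change of the 10 genes was 1.14, against 0.00 over all transcripts tested and -0.13 over those of at least 100 CPM.

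MT-ND2, which encodes a membrane subunit of complex I, had 16685 and 17333 CPM in the siSTAT3 libraries, against 3539, 4550, 4416 and 4602 CPM in the NC libraries. The lowest siSTAT3 value was more than 3 times the highest NC value. Its log2 fold change was 1.99 ± 0.13 (SE, adjusted p = 0.00161, edgeR). MT-CYB, the only complex III subunit made in mitochondria, had 8677 and 9051 CPM in siSTAT3, against 1881, 2287, 2382 and 2552 CPM in NC. The gap between the groups was again far wider than either group's range, with a log2 fold change of 1.96 ± 0.13 (adjusted p = 0.00157, edgeR). MT-ND1, a subunit at the joint between the membrane arm and the peripheral arm of complex I, had 8513 and 8852 CPM in siSTAT3, against 2067, 2718, 2196 and 2241 CPM in NC. It rose by 1.91 ± 0.13 on the log2 scale (adjusted p = 0.00192, edgeR).

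MT-ATP6 had 11792 and 12330 CPM in siSTAT3, against 4273, 5182, 4593 and 4542 CPM in NC, a log2 fold change of 1.38 ± 0.11 (adjusted p = 0.00251, edgeR). Among the complex IV genes MT-CO2 averaged 14120 ± 1081 CPM in siSTAT3 (SD, n = 2) and 5881 ± 1016 CPM in NC (SD, n = 4), a log2 fold change of 1.26 ± 0.16 with adjusted p = 0.00992 by edgeR. MT-CO1, the subunit that binds and reduces oxygen, averaged 26548 ± 781 CPM in siSTAT3 and 14374 ± 1862 CPM in NC, and its log2 fold change of 0.89 ± 0.13 was the smallest of the 10 (adjusted p = 0.0170, edgeR). MT-CO3, MT-ND4, MT-ND5 and MT-ND6 had log2 fold changes of 0.93, 0.95, 1.01 and 0.93, with adjusted p between 0.00666 and 0.0158 by edgeR.

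With only 1 siSTAT3 library in the comparison, whichever was left out, 4 genes kept their call, MT-ND1, MT-ND2, MT-CYB and MT-ATP6, and the log2 fold changes of the other 6 stayed between 0.85 and 1.34. Against NC replicates 1 and 2 alone 9 of the 10 passed, MT-ND6 having adjusted p = 0.0517 by edgeR, and against NC replicates 3 and 4 alone all 10 did.

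After HMGN5 siRNA 6 of the 10 genes rose, and 2 of the complex IV genes stayed near the control. MT-CYB, MT-ND2, MT-ATP6, MT-ND1, MT-ND4 and MT-CO3 rose, by 4.30-fold to 1.48-fold, while MT-ND5, MT-ND6, MT-CO1 and MT-CO2 did not pass the test. All 6 calls were higher, where 3.39% of 74346 transcripts were called in either direction and 0.943% as higher. Among transcripts of at least 100 CPM, 4.54% were called as higher. For 7 of the 10 genes both siHMGN5 libraries lay above all NC libraries. They did so for 16.2% of all transcripts tested and 16.9% of those of at least 100 CPM. The median log2 fold change of the 10 genes was 0.74, and it was 0.00 over all transcripts and -0.20 over those of at least 100 CPM.

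MT-CYB had 9064 and 10516 CPM in the siHMGN5 libraries, against 1881, 2287, 2382 and 2552 CPM in the NC libraries. The lower siHMGN5 library was well above 3 times every NC library, and the log2 fold change was 2.11 ± 0.13 (SE, adjusted p = 0.00192, edgeR). MT-ND2 had 13819 and 17026 CPM in siHMGN5, against 3539, 4550, 4416 and 4602 CPM in NC (log2 fold change 1.85 ± 0.13, adjusted p = 0.00258, edgeR). MT-ATP6 had 11273 and 13741 CPM in siHMGN5, against 4273, 5182, 4593 and 4542 CPM in NC (log2 fold change 1.43 ± 0.11, adjusted p = 0.00294, edgeR). In all 3 genes the second siHMGN5 library was the higher one, and neither came near the NC range.

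MT-ND1 had 4565 and 5811 CPM in siHMGN5, against 2067 to 2718 CPM in NC, and rose by 1.17 ± 0.14 on the log2 scale (adjusted p = 0.00967, edgeR). MT-ND4, another membrane subunit of complex I and one of the most abundant messengers in these cells, had 27866 and 32544 CPM in siHMGN5, against 14328 to 19285 CPM in NC, a log2 fold change of 0.92 ± 0.14 (adjusted p = 0.0203, edgeR). MT-CO3 had 6299 and 7378 CPM in siHMGN5, against 4124 to 5059 CPM in NC, a log2 fold change of 0.56 ± 0.10 (adjusted p = 0.0371, edgeR). For these 3 the groups did not overlap, but the calls were less steady: MT-CO3 lost its call in 9 of 17 alternative analyses, MT-ND4 in 7 and MT-ND1 in 2, among them that without siHMGN5 replicate 2, which left 3 genes called. MT-ND2, MT-CYB and MT-ATP6 were called in all 17.

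MT-CO1 had 11206 and 13366 CPM in siHMGN5, against 14526, 16953, 13017 and 12999 CPM in NC. The siHMGN5 libraries lay at the bottom of the NC range, with overlap, and the log2 fold change was -0.23 ± 0.13 (adjusted p = 0.476, edgeR). MT-CO2 had 5621 and 6457 CPM in siHMGN5, against 6081, 7225, 4940 and 5279 CPM in NC, with a log2 fold change of 0.04 ± 0.16 (adjusted p = 0.962, edgeR). MT-ND5 and MT-ND6 had log2 fold changes of 0.56 ± 0.12 and 0.33 ± 0.12, and did not pass either (adjusted p = 0.0706 and 0.256, edgeR). The MT-ND5 change was close to that of MT-CO3, which was called. MT-ND5 had 4172 and 4995 CPM in siHMGN5, above all NC libraries, where the highest had 3633 CPM. It was called in 5 of 17 alternative analyses.

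Setting the STAT3 and HMGN5 siRNAs directly against each other, 2 of the 10 genes were called, MT-CO1 and MT-CO2, both higher in siSTAT3; 3.89% of all transcripts were called in this comparison in either direction and 2.02% as higher, and 12.6% of those of at least 100 CPM were called as higher. MT-CO1 had 25996 and 27100 CPM in siSTAT3, against 11206 and 13366 CPM in siHMGN5 (log2 fold change 1.11 ± 0.16, adjusted p = 0.0157, edgeR). MT-CO2 had 13355 and 14884 CPM in siSTAT3, against 5621 and 6457 CPM in siHMGN5 (log2 fold change 1.23 ± 0.19, adjusted p = 0.0212, edgeR). For both genes the siSTAT3 libraries were about double the siHMGN5 ones with no overlap, and neither call was kept when any 1 of the 4 libraries was left out, with adjusted p between 0.0616 and 0.143 by edgeR. MT-ND1, MT-ND6, MT-ND5 and MT-CO3 were also higher in siSTAT3 without overlap, but did not pass. Their log2 fold changes were 0.74 ± 0.16, 0.60 ± 0.14, 0.44 ± 0.15 and 0.37 ± 0.12 (adjusted p = 0.0629, 0.0846, 0.196 and 0.186, edgeR). Both siSTAT3 libraries lay above both siHMGN5 libraries for 26.5% of all transcripts tested and 47.4% of those of at least 100 CPM. MT-ND2, MT-ND4, MT-CYB and MT-ATP6 had log2 fold changes between -0.14 and 0.14, with standard errors of 0.13 to 0.16. Modest differences in either direction thus fall within their error.

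**Figure D2:**
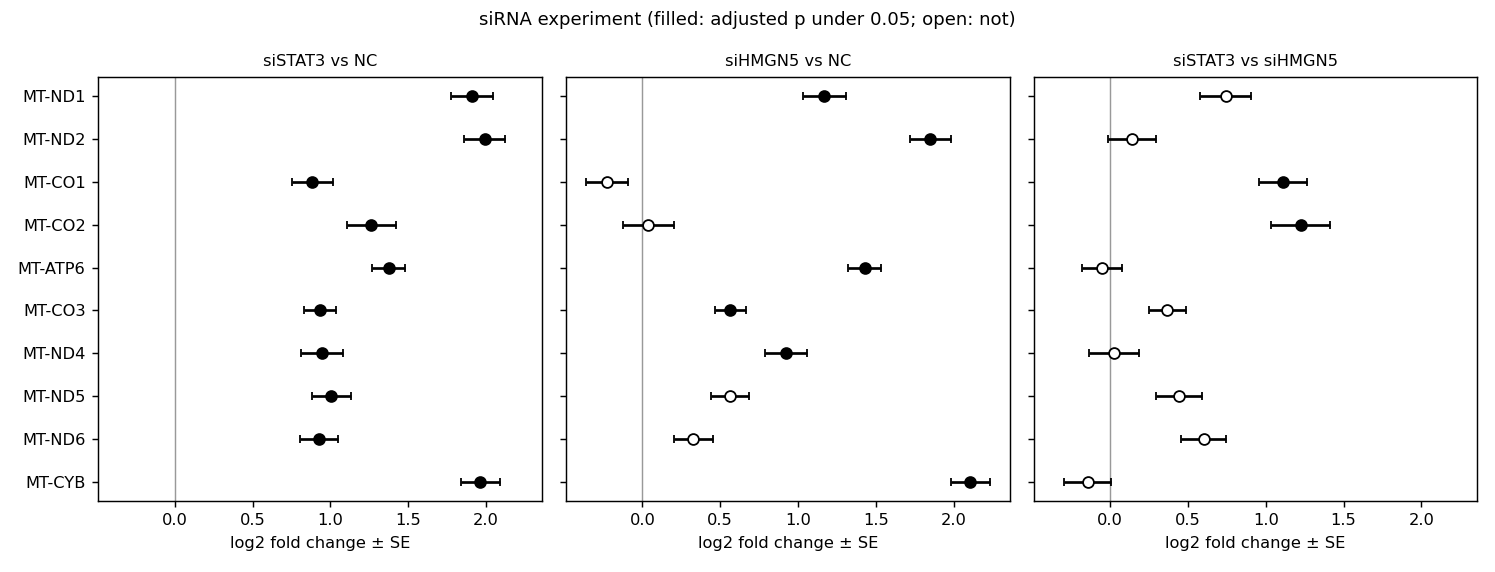
Log2 fold change (x axis, bars are standard errors from edgeR) of each of the 10 genes (y axis, in order along the mitochondrial genome) in the siRNA experiment; filled points passed an adjusted p of 0.05. All 10 points are filled for siSTAT3 vs NC, 6 for siHMGN5 vs NC, and only MT-CO1 and MT-CO2 for siSTAT3 vs siHMGN5.

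Dividing each gene's reads by the summed reads of the 10 removes the scaling to the rest of the transcriptome, and shows how the mitochondrial messengers shifted relative to each other. In siHMGN5, MT-CO1 made up 11.8% and 11.9% of the 10 genes' reads, against 23.7% to 26.1% in NC. MT-CO2 made up 5.72% and 5.94% in siHMGN5, against 9.09% to 10.9% in NC. MT-ND2 took 14.6% and 15.1% in siHMGN5, against 6.35% to 8.41% in NC, and MT-CYB took 9.32% and 9.57%, against 3.38% to 4.66% in NC. MT-ATP6 took 11.9% and 12.2% in siHMGN5, against 7.65% to 8.45% in NC. All 10 genes had non-overlapping shares between siHMGN5 and NC, 5 of them higher and 5 lower. This measure is defined only within the 10 genes, so no background share over all transcripts stands beside such counts. Since the shares sum to a fixed total, a gene can fall in share while its level rises, as MT-CO3 did at 6.54% and 6.65% in siHMGN5 against 7.40% to 8.71% in NC.

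In siSTAT3 the shares of 9 genes did not overlap those of NC. MT-ND1, MT-ND2, MT-CYB and MT-ATP6 had higher shares than in every NC library, MT-ND4, MT-ND5, MT-ND6, MT-CO1 and MT-CO3 had lower ones, and MT-CO2 overlapped at 10.1% and 10.9% in siSTAT3 against 9.09% to 10.9% in NC. MT-CO1 made up 19.6% and 19.8% in siSTAT3, against 23.7% to 26.1% in NC. By complex, the 3 complex IV genes together held 36.4% and 37.2% of the reads in siSTAT3 and 24.4% and 24.1% in siHMGN5, against 41.7% to 44.4% in NC. The 5 complex I genes held 48.1% and 47.1% in siSTAT3 and 54.1% and 54.4% in siHMGN5, against 44.6% to 45.8% in NC. The reads of MT-ND2 and MT-CYB divided by those of MT-CO1 and MT-CO2 gave 0.645 and 0.628 in siSTAT3 and 1.36 and 1.39 in siHMGN5, against 0.263, 0.283, 0.379 and 0.391 in NC.

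The NC pairs also differed along some of these axes. NC replicates 3 and 4 had higher shares than replicates 1 and 2 of MT-ND1, MT-ND2, MT-CYB, MT-CO3 and MT-ATP6 and lower shares of MT-ND4, MT-CO1 and MT-CO2. For all of these genes the pairs did not overlap. Non-overlapping shares were thus common between control libraries too, and the counts of such genes do not by themselves mark an siRNA effect. MT-ND2 averaged 8.27% in NC replicates 3 and 4 and 6.54% in replicates 1 and 2, and MT-CYB averaged 4.52% and 3.38% in these pairs. For MT-ND2 and MT-CYB siHMGN5 and siSTAT3 stood further from either pair than the pairs did from each other. The pairs differed by more than the distance to the nearer pair for MT-ND4 and MT-CO3 in siHMGN5 and for MT-CO2, MT-CO3 and MT-ATP6 in siSTAT3. The part of whatever separates the pairs in the siRNA results, or of anything like it in the lentiviral results, was not tested. The direction of each call was the same against either pair.

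**Figure D3:**
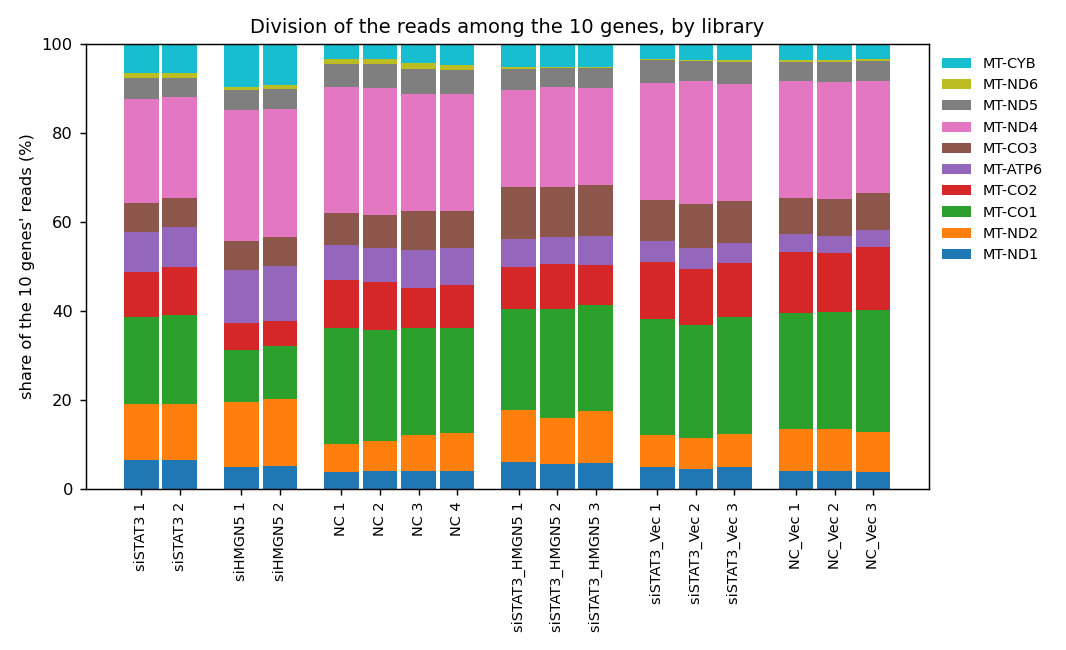
Division of the 10 genes' summed reads among the genes (percent, y axis) in each of the 17 libraries (x axis), stacked in genome order. MT-CO1 narrows to 11.8% and 11.9% in siHMGN5, against 23.7% to 26.1% in NC, while MT-ND2, MT-ATP6 and MT-CYB widen.

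In the lentiviral experiment STAT3 siRNA with the empty vector left most of the 10 genes near the control. Only MT-ND2 was called, and it was lower: 2622, 2598 and 2789 CPM in siSTAT3_Vec, against 4298, 3607 and 3540 CPM in NC_Vec. The groups did not overlap, and the log2 fold change was -0.52 ± 0.11 (SE, adjusted p = 0.0161 over 69768 transcripts, edgeR). In this comparison 14.3% of all transcripts were called in either direction and 7.07% as lower, and among transcripts of at least 100 CPM 24.8% were called as lower, so 1 lower gene of 10 is close to the share of all transcripts and below that of abundant ones. The MT-ND2 call was lost without siSTAT3_Vec replicate 1 or 2 (adjusted p = 0.0583 and 0.0677, edgeR).

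The other genes had log2 fold changes between -0.27 and 0.14. MT-CO2 had 4731, 4739 and 4517 CPM in siSTAT3_Vec, against 6148, 5076 and 5609 CPM in NC_Vec (log2 fold change -0.27 ± 0.08, adjusted p = 0.0618, edgeR). MT-CO1 had 9688, 9447 and 9698 CPM in siSTAT3_Vec, against 11729, 10179 and 11000 CPM in NC_Vec (log2 fold change -0.19 ± 0.05, adjusted p = 0.0567, edgeR). For both the siSTAT3_Vec libraries lay just below all NC_Vec libraries. They did so for 18.4% of all transcripts tested and 30.5% of those of at least 100 CPM. The adjusted p fell on the other side of the threshold for MT-CO1 in 6 of 15 alternative analyses and for MT-CO2 in 4. MT-CYB had risen close to 4-fold after STAT3 siRNA without virus. In the lentiviral experiment it had 1257, 1325 and 1314 CPM in siSTAT3_Vec, against 1659, 1385 and 1383 CPM in NC_Vec (log2 fold change -0.18 ± 0.09, adjusted p = 0.232, edgeR).

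The difference between the STAT3 siRNA effects was tested itself, as an interaction in a fit of all 17 libraries. All 10 genes had a more positive effect in the siRNA experiment, with 5.51% of 86839 transcripts called in either direction and 2.23% called as more positive, or 11.7% of those of at least 100 CPM. The difference of log2 fold changes was largest for MT-ND2 at 2.49 ± 0.18, followed by MT-CYB at 2.13 ± 0.16 and MT-ND1 at 1.75 ± 0.17, and smallest for MT-CO3 at 0.82 ± 0.13, with adjusted p between 4.39e-06 and 0.0169 by edgeR. In 9 of the genes the call was kept in all 23 alternative analyses, and MT-ND6 lost it in 4. The siRNA experiment had no virus and the lentiviral one did, and experiment and infection cannot be told apart in this design.

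The controls of the 2 experiments differed as well. In the same fit 8 of the 10 genes were lower in NC_Vec than in NC, where 12.5% of transcripts were called in either direction and 6.31% as lower, or 20.4% of those of at least 100 CPM. MT-ND6, scaled over all 17 libraries, had 152, 151 and 141 CPM in NC_Vec, against 631, 825, 677 and 670 CPM in NC. That is a log2 fold change of -2.24 ± 0.18 (adjusted p = 4.38e-06, edgeR), with no overlap. All NC_Vec libraries lay below all NC libraries for 12.6% of all transcripts tested and 22.4% of those of at least 100 CPM. These are poly(A) RNA libraries, and how far the MT-ND6 counts reflect poly(A) capture was not tested. MT-ATP6 had 1826, 1500 and 1605 CPM in NC_Vec, against 4205, 5125, 4587 and 4515 CPM in NC, a log2 fold change of -1.49 ± 0.09 (adjusted p = 6.41e-07, edgeR). The other 6, MT-ND1, MT-ND4, MT-ND5, MT-CYB, MT-CO1 and MT-CO3, fell by 0.35 to 0.71 on the log2 scale; the MT-CO1 call was lost in 4 of 18 alternative analyses, among them those without NC_Vec replicate 2 or 3, with adjusted p up to 0.0873 by edgeR. MT-ND2 and MT-CO2 overlapped between NC_Vec and NC and did not pass the test, with log2 fold changes of -0.13 and -0.03.

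With HMGN5 supplied by lentivirus in STAT3-siRNA cells 5 of the 10 genes rose against the empty vector: MT-ND2, MT-CYB, MT-ATP6, MT-ND1 and MT-CO3. The rises were 1.76-fold to 1.33-fold. In this comparison 3.77% of 69768 transcripts were called in either direction and 1.52% as higher; of the 1609 whose mean reached 100 CPM, 11.0% were called as higher. The median log2 fold change of the 10 genes was 0.25, against -0.01 over all transcripts tested and -0.00 over those of at least 100 CPM.

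MT-ND2 had 5252, 4071 and 4763 CPM in siSTAT3_HMGN5, against 2622, 2598 and 2789 CPM in siSTAT3_Vec. The lowest library with HMGN5 was far above the highest with the vector, and the log2 fold change was 0.81 ± 0.11 (SE, adjusted p = 0.00790, edgeR). MT-CYB had 2373, 2004 and 2106 CPM in siSTAT3_HMGN5, against 1257, 1325 and 1314 CPM in siSTAT3_Vec (log2 fold change 0.73 ± 0.09, adjusted p = 0.00558, edgeR). MT-ATP6 had 2884, 2420 and 2717 CPM in siSTAT3_HMGN5, against 1712, 1724 and 1630 CPM in siSTAT3_Vec (log2 fold change 0.66 ± 0.09, adjusted p = 0.00765, edgeR). None of the 3 overlapped between the groups, and each was called in all 15 alternative analyses. All siSTAT3_HMGN5 libraries lay above all siSTAT3_Vec libraries for 12.2% of all transcripts tested and 28.0% of those of at least 100 CPM.

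MT-ND1 had 2751, 2231 and 2409 CPM in siSTAT3_HMGN5, against 1855, 1683 and 1804 CPM in siSTAT3_Vec (log2 fold change 0.47 ± 0.09, adjusted p = 0.0311, edgeR). MT-CO3 had 5230, 4409 and 4641 CPM in siSTAT3_HMGN5, against 3423, 3754 and 3536 CPM in siSTAT3_Vec (log2 fold change 0.41 ± 0.07, adjusted p = 0.0257, edgeR). These groups did not overlap either, yet both calls were lost without siSTAT3_HMGN5 replicate 1 or 3 or without any 1 of the siSTAT3_Vec libraries, with adjusted p between 0.0565 and 0.124 by edgeR, which left 3 genes called. MT-CO2 had 4274, 3928 and 3694 CPM in siSTAT3_HMGN5, against 4731, 4739 and 4517 CPM in siSTAT3_Vec, and its log2 fold change of -0.23 ± 0.08 did not pass (adjusted p = 0.184, edgeR). MT-CO1, MT-ND4, MT-ND5 and MT-ND6 had log2 fold changes between -0.10 and 0.08 and overlapping groups.

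Against the vector control with control siRNA, siSTAT3_HMGN5 had 4 genes higher and 1 lower, in a comparison where 22.3% of all transcripts were called in either direction, 10.9% as higher and 11.4% as lower. Among transcripts of at least 100 CPM the shares were 36.4% higher and 30.5% lower, so 4 higher genes of 10 are near that background. The higher ones were MT-ATP6, MT-ND1, MT-CYB and MT-CO3, with log2 fold changes of 0.72 ± 0.09, 0.61 ± 0.09, 0.55 ± 0.09 and 0.51 ± 0.07 (adjusted p = 0.000799 to 0.00329, edgeR). MT-CO2 was lower, with 4274, 3928 and 3694 CPM in siSTAT3_HMGN5, against 6148, 5076 and 5609 CPM in NC_Vec (log2 fold change -0.50 ± 0.08, adjusted p = 0.00293, edgeR). These 5 calls were kept in all 15 alternative analyses. MT-ND2 had 5252, 4071 and 4763 CPM in siSTAT3_HMGN5, overlapping the 4298, 3607 and 3540 CPM in NC_Vec (log2 fold change 0.30 ± 0.11, adjusted p = 0.0868, edgeR).

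**Figure D4:**
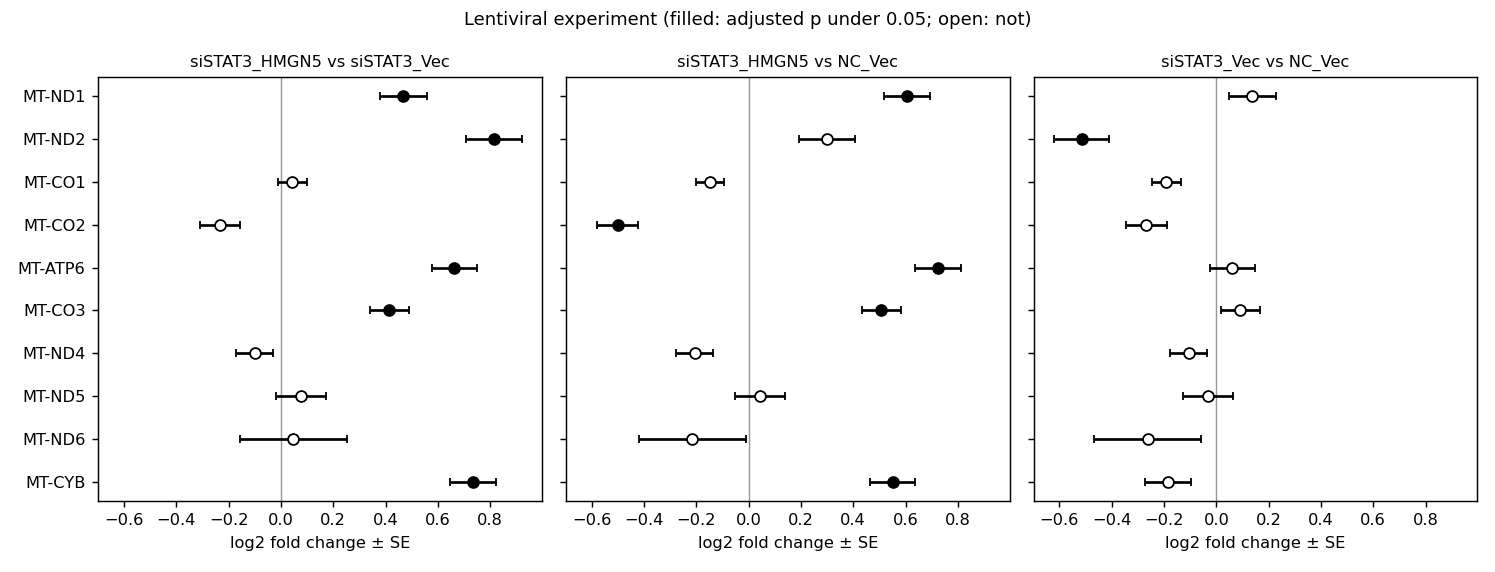
Log2 fold change (x axis, bars are standard errors from edgeR) of each of the 10 genes (y axis, in genome order) in the lentiviral experiment; filled points passed an adjusted p of 0.05. In siSTAT3_HMGN5 vs siSTAT3_Vec the filled genes are MT-ND1, MT-ND2, MT-ATP6, MT-CO3 and MT-CYB, while in siSTAT3_Vec vs NC_Vec only MT-ND2 is filled, at -0.52.

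Among the 10 genes' own reads, siSTAT3_HMGN5 differed from siSTAT3_Vec without overlap for 8 genes. MT-ND1, MT-ND2, MT-CYB, MT-CO3 and MT-ATP6 were higher and MT-ND4, MT-CO1 and MT-CO2 lower. These 8 genes, with these directions, are also the ones that set the later NC pair (replicates 3 and 4) apart from the earlier. The set of genes and directions is thus not particular to HMGN5. The differences of mean share were larger with HMGN5. For MT-ND2 they were 3.99 points with HMGN5 and 1.73 for the NC pairs, and for MT-CO1 -2.21 and -1.71. MT-CO2 made up 9.01% to 9.98% in siSTAT3_HMGN5, against 12.2% to 12.8% in siSTAT3_Vec. MT-CYB made up 5.09% to 5.23% in siSTAT3_HMGN5, against 3.40% to 3.55% in siSTAT3_Vec. The reads of MT-ND2 and MT-CYB divided by those of MT-CO1 and MT-CO2 gave 0.521, 0.449 and 0.511 in siSTAT3_HMGN5, against 0.269, 0.277 and 0.289 in siSTAT3_Vec; the NC_Vec libraries had 0.333, 0.327 and 0.296.

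HMGN5 was targeted by siRNA in one experiment and supplied in the other, and these comparisons, siHMGN5 vs NC and siSTAT3_HMGN5 vs siSTAT3_Vec, share no library. In the first, 9 of the 10 genes had positive log2 fold changes and 6 were called as higher. The 5 genes called in the second were among those 6. MT-ND4 was the exception, with a log2 fold change of 0.92 in siHMGN5 vs NC and -0.10 in siSTAT3_HMGN5 vs siSTAT3_Vec. Over the 10 genes the log2 fold changes of the comparisons had Pearson's r = 0.845 and Spearman's rho = 0.842. The comparison siSTAT3 vs NC shares no library with siSTAT3_HMGN5 vs siSTAT3_Vec either. Their log2 fold changes had r = 0.743 and rho = 0.709. All 10 genes were called as higher in siSTAT3 vs NC, so the 5 called genes had to be higher there too. The comparisons siSTAT3 vs NC and siHMGN5 vs NC share the NC libraries. A further pair without a shared library is siSTAT3 vs NC and siSTAT3_Vec vs NC_Vec, the STAT3 siRNA in each experiment. There r was -0.196 and rho was -0.0424, and none of the genes was called the same way in both. These values describe 10 genes of which 9 are read from the same strand and are not independent, and no p is given. In both HMGN5 comparisons the largest values were those of MT-ND2, MT-CYB and MT-ATP6. They were 1.85, 2.11 and 1.43 in siHMGN5 vs NC and 0.81, 0.73 and 0.66 in siSTAT3_HMGN5 vs siSTAT3_Vec. MT-CO1 and MT-CO2 were among the smallest in both HMGN5 comparisons. The order was similar in siSTAT3 vs NC, with MT-ND2, MT-CYB and MT-ND1 largest at 1.99, 1.96 and 1.91. MT-ATP6 came next there at 1.38 and MT-CO1 was smallest at 0.89, while MT-CO2 at 1.26 was not among the smallest. NC replicates 3 and 4 also had higher shares of MT-ND2, MT-CYB and MT-ATP6 and lower shares of MT-CO1 and MT-CO2 than replicates 1 and 2. The order is thus not particular to HMGN5, and r = 0.845 cannot by itself be read as a mark of HMGN5.

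**Figure D5:**
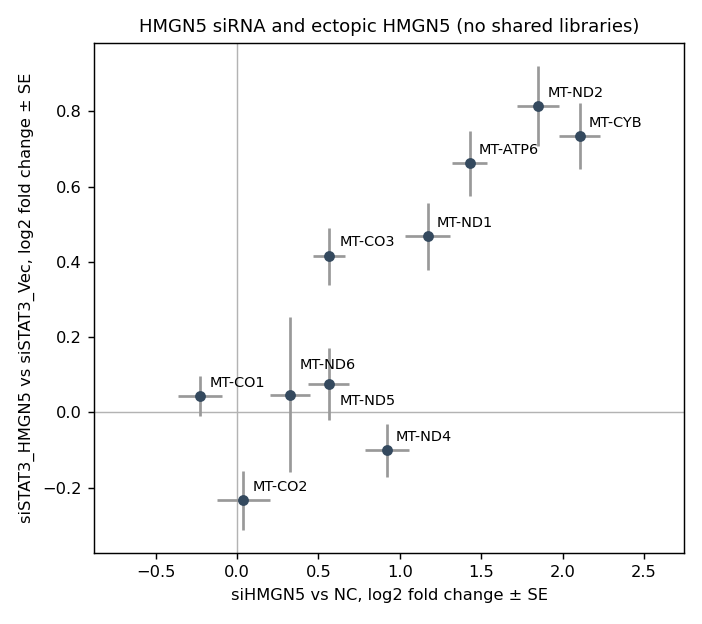
Log2 fold change of each gene in siSTAT3_HMGN5 vs siSTAT3_Vec (y axis) against that in siHMGN5 vs NC (x axis), with standard errors from edgeR; each point is 1 of the 10 genes and the comparisons share no library. MT-ND2, MT-CYB and MT-ATP6 lie at the upper right and MT-CO1 and MT-CO2 near the lower left, with r = 0.845 across the genes.

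The order of the genes by level, taken per length as reads per 1000 bases of effective length per 1000000 reads (RPKM), also changed between groups. In siSTAT3 the highest was MT-CO2 at 32838 ± 2345 RPKM (SD, n = 2), followed by MT-ATP6 at 27810 ± 776 and MT-ND4 at 27370 ± 33 RPKM, whose ranges overlapped. In siHMGN5 MT-ATP6 led at 30323 ± 3652 RPKM (SD, n = 2), overlapping MT-ND4 at 28355 ± 2622, and MT-ND2 followed at 20272 ± 2596 RPKM. In NC the first 4 were MT-ND4 at 14308 ± 2178, MT-CO2 at 13786 ± 2539, MT-CO1 at 11210 ± 1557 and MT-ATP6 at 10860 ± 841 RPKM (SD, n = 4), each overlapping its neighbour. MT-CO1 was thus at place 5 in siSTAT3 and 7 in siHMGN5, against 3 in NC; its level in siHMGN5 was 9959 ± 1048 RPKM (SD, n = 2).

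The lentiviral groups were all led by MT-CO2, at 9258 ± 541 RPKM in siSTAT3_HMGN5, 10960 ± 295 RPKM in siSTAT3_Vec and 13027 ± 778 RPKM in NC_Vec (SD, n = 3 each). In siSTAT3_HMGN5 it overlapped MT-CO3 at 9026 ± 695 RPKM, whereas in siSTAT3_Vec and NC_Vec the second gene was MT-ND4, without overlap. MT-ND6 was the lowest per length in all 3 lentiviral groups, at 464 ± 124 RPKM in siSTAT3_HMGN5, 453 ± 79 RPKM in siSTAT3_Vec and 536 ± 24 RPKM in NC_Vec (SD, n = 3 each). In the siRNA experiment MT-ND5 was the lowest instead, at 3979 ± 190 RPKM in siSTAT3 and 3077 ± 334 RPKM in siHMGN5 (SD, n = 2 each) and at 2001 ± 232 RPKM in NC (SD, n = 4). MT-ND6 relative to its neighbour MT-ND5, per length, was 0.295 to 0.476 in the lentiviral libraries and 1.09 to 1.33 in those of the siRNA experiment. Since MT-ND6 has little or no poly(A) tail and poly(A) RNA was sequenced, its counts need not follow its level in the cell.

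By reads alone these genes are among the most abundant transcripts of the cell. MT-ND4 ranked first or second of all transcripts in each of the 17 libraries, and MT-CO1 between 1 and 4. MT-ND6 had the widest range of ranks, from 27 to 1931. Length did not order the siRNA effects: Spearman's rho over the 10 genes was -0.03 for siSTAT3 vs NC and -0.02 for siHMGN5 vs NC. With the start position along the genome rho was -0.22 for siSTAT3 vs NC, 0.05 for siHMGN5 vs NC, -0.45 for siSTAT3 vs siHMGN5 and -0.32 for the difference of the STAT3 siRNA effects between experiments. It was -0.66 for NC_Vec vs NC, where genes with later starts had the lower log2 fold changes. These too are descriptions across 10 genes, with no p.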

How the data were processed

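Poly(A) RNA of 17 libraries was analysed; 2 CUT&Tag samples are not analysed here. Per the file headers, each deposited table gives estimated counts, TPM values and lengths in bases. The submitters' processing notes name Salmon 1.4.0 and GRCh38; its options are not given in the sources used here. In these, the authors' estimated counts divide a read among the transcripts that could explain it, and all but 2 of the 170 values of the 10 genes differed from whole numbers by more than 0.0015, so reads may be shared with overlapping transcripts or nuclear copies. Deposited TPM was used for one alternative.

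Estimated counts were rounded and tested with edgeR 4.0.16 (TMM, filterByExpr, glmQLFit, glmQLFTest; R 4.3.3) per experiment, or over 17 libraries for comparisons across experiments. P-values were adjusted by Benjamini-Hochberg over all transcripts tested, at 0.05. Standard errors were derived from each log2 fold change and its quasi-likelihood F value. Alternatives used DESeq2 1.42.0, limma 3.58.1 (voom), other scalings and filters, and left-out libraries. A check of the test on simulated data used independent libraries with no split like that of the NC pairs. It cannot show how the test behaves with such a split. All 10 genes were named by rule. Gene lists of nuclear respiratory subunits and mitochondrial transcription factors, cell line markers, STAT3 and HMGN5, and a search for genes of like pattern were planned but not run, since transcripts could not be paired with genes here. The members and lists were chosen with earlier results of these data known.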

Additional observations from a re-analysis of the deposited data

Results flagged for a closer look

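The effect of STAT3 siRNA differed between the siRNA experiment and the lentiviral experiment for all 10 genes, by the interaction test in a fit of 17 libraries. The difference of log2 fold changes, siSTAT3 vs NC minus siSTAT3_Vec vs NC_Vec, was 1.75 for MT-ND1, 2.49 for MT-ND2, 1.03 for MT-ND4, 1.02 for MT-ND5 and 1.17 for MT-ND6. It was 2.13 for MT-CYB, 1.06 for MT-CO1, 1.51 for MT-CO2, 0.82 for MT-CO3 and 1.29 for MT-ATP6. Infection and experiment cannot be told apart. In the 4 NC libraries no gene had a single library far enough from the others to be listed here by Dixon's test.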

How the results depend on the processing

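Over 8 comparisons and 10 genes, 1216 gene values kept their direction and side of the threshold, 63 lost their call, 30 gained one and 21 changed sign; none that changed sign was called in the main analysis. The cause of the changes was not tested. Genes called for siHMGN5 vs NC numbered 3 with the replicate block, against 6 without it. For siSTAT3 vs siHMGN5, DESeq2 called 6 and voom 4. For siSTAT3_Vec vs NC_Vec, 2 were called with DESeq2 size factors, 3 with library totals, 3 with DESeq2, 3 with voom and 2 with the replicate block. For siSTAT3_HMGN5 vs NC_Vec, 8 were called with library totals and 8 with DESeq2. Leaving out 1 library at a time gave 4 to 10 calls for siSTAT3 vs NC, 3 to 7 for siHMGN5 vs NC, 0 to 0 for siSTAT3 vs siHMGN5, 3 to 5 for siSTAT3_HMGN5 vs siSTAT3_Vec and 0 to 3 for siSTAT3_Vec vs NC_Vec. Where 1 library of a group remained, it was assumed to vary like the other groups. Same-numbered libraries deviated together little (correlations of 0.00368 to 0.0545 over 6 pairs and -0.11 to 0.0508 over 9). With so few libraries per group this cannot show whether the replicate numbers pair the samples. The replicate block gave 7 calls for siSTAT3 vs NC.

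Counted in TPM, the share of the 10 genes was 8.52% in siSTAT3, 6.77% in siHMGN5, 4.11% in NC, 2.74% in siSTAT3_HMGN5, 2.38% in siSTAT3_Vec and 2.67% in NC_Vec, with the same order in the siRNA experiment; without transcripts under 300 bases the share of reads in siSTAT3_Vec was 3.78%. The number of all transcripts called varied more, from 775 to 10602 for siSTAT3 vs NC.

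Among log2 fold changes near 0, MT-CO2 in siHMGN5 vs NC was -0.14 with the replicate block, -0.14 against NC replicates 1 and 2, and -0.076 to 0.15 with 1 library left out. MT-CO2 in NC_Vec vs NC was 0.16 with NC replicates 3 and 4, and -0.12 to 0.080 with 1 library left out. In siSTAT3 vs siHMGN5, MT-ND4 was -0.043 with library totals, and leaving out 1 library gave -0.094 to 0.13 for MT-ND4, -0.014 to 0.29 for MT-ND2 and -0.20 to 0.090 for MT-ATP6. The same gave -0.066 to 0.014 for MT-ND5 and -0.0064 to 0.15 for MT-ATP6 in siSTAT3_Vec vs NC_Vec, -0.042 to 0.15 for MT-ND5 and -0.13 to 0.25 for MT-ND6 in siSTAT3_HMGN5 vs siSTAT3_Vec, and -0.079 to 0.12 for MT-ND5 in siSTAT3_HMGN5 vs NC_Vec.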

Other observations

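MT-ATP6 and MT-CO3 lie next to each other on the mitochondrial genome and are known to be carried on 1 messenger together with MT-ATP8 before cleavage. Their ratio per length was 1.65 and 1.71 in siSTAT3 and 2.20 and 2.28 in siHMGN5, against 1.28, 1.26, 1.20 and 1.23 in NC. In the lentiviral experiment it was 0.684, 0.681 and 0.726 in siSTAT3_HMGN5 and 0.622, 0.570 and 0.573 in siSTAT3_Vec, against 0.619, 0.569 and 0.607 in NC_Vec. MT-ATP6 thus exceeded MT-CO3 per length in every library of the siRNA experiment and in no library of the lentiviral one.

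MT-ND1 and MT-ND2 are also close neighbours, and the ratio of MT-ND2 to MT-ND1 per length was 1.74 and 1.74 in siSTAT3 and 2.68 and 2.60 in siHMGN5, against 1.52, 1.49, 1.79 and 1.85 in NC. It was 1.72, 1.64 and 1.77 in siSTAT3_HMGN5 and 1.28, 1.39 and 1.39 in siSTAT3_Vec, against 2.18, 2.05 and 2.10 in NC_Vec. The siSTAT3 values lay inside the NC range, while siSTAT3_Vec lay below every NC_Vec value.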
